A study of Mus musculus with 12 samples.

Results

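The 37 genes described here are endothelial genes, read out in whole kidneys of mice with polycystic kidney disease. They were taken by gene name from a table of 54532 genes: receptors and ligands of vessel growth, transcription factors of vessel identity, and junction and surface proteins of glomerular, peritubular, arterial and lymphatic vessels. All 37 names were found in the table and all 37 passed the filter on low counts, which kept 24642 genes. The genes were chosen by name and not by a threshold on a value, but with the cystic against noncystic fold changes of these data known, so the counts of called genes describe the list. The mice were 18 days old, of strain C57BL/6 per the labels (a C57BL/6 J background in the methods), and fell into 4 groups of 3. Noncystic mice carried the hypomorphic *Pkd1* RC allele beside a floxed *Pkd1* allele without Cre (*Pkd1* RC/F, written *Pkd1* RC/+), with a normal *Pkd2* gene (+/+) or the Δ17/Δ17 genotype. Cystic mice carried the same *Pkd1* alleles with Ksp-Cre (*Pkd1* RC/-), again with either *Pkd2* genotype. The RC allele was thus present in all 12 mice, which the labels number: 19 to 21 noncystic *Pkd2* +/+, 22 to 24 noncystic Δ17/Δ17, 25 to 27 cystic *Pkd2* +/+, and mice 28 to 30 the cystic Δ17/Δ17 group. In Δ17 mice CRISPR had removed the site for miR-17 in the 3′-UTR of *Pkd2*, a change carried by every cell of the animal. Ksp-Cre is active in tubule epithelium, and recombination in endothelial cells was not measured here.

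Endothelial cells line all blood and lymphatic vessels. In the kidney they form the fenestrated capillaries of the glomerulus, the peritubular capillaries around the tubules, the vasa recta and the larger arteries and veins. VEGF receptors and the angiopoietin and Tie system carry the main growth and survival signals of these cells, ETS and SOX factors hold their identity, and Notch signalling and the apelin and adrenomedullin systems shape sprouting, artery formation and permeability.

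Libraries held 18800307 to 24453033 counted reads, and 40835 to 52032 reads per mouse fell on the 37 genes. *Pkd2* ranged from 307 to 337 CPM (the read count relative to library size, with TMM factors applied between libraries) in the cystic Δ17/Δ17 mice and from 213 to 233 CPM in the cystic +/+ mice. In the noncystic mice *Pkd2* ranged from 270 to 286 CPM with Δ17/Δ17 and from 194 to 219 CPM with +/+. No library repeated another of its own group, and pairs across groups were not checked. By *Xist*, females and males were mixed, with 1 female of 3 in noncystic *Pkd2* +/+, 2 of 3 in noncystic Δ17/Δ17, 2 of 3 in cystic *Pkd2* +/+ and 1 of 3 in cystic Δ17/Δ17 kidneys. Because whole kidneys were sequenced, fewer endothelial cells and less RNA per endothelial cell cannot be told apart. CPM is a level relative to the other RNA of the kidney and depends on the scaling.

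For orientation, the start regions of the genes were read from RefSeq (GRCm38.p6), from 250 bases before to 50 bases after each annotated start. Entries were matched for 21 of the 37 genes, with 26 start regions in all. Endothelial ETS factors such as Erg and Fli1, both among the 37, bind motifs around a GGAA core, and the 7-letter motif CAGGAAG was found on either strand in 12 of the 26 regions (46.2%), against 13.3% of all 32851 regions. The 12 regions belong to 11 genes, of which 4 fell, 1 rose and 6 were not called between cystic and noncystic *Pkd2* +/+ kidneys. Of the 37 genes 22 fell and 2 rose in that comparison, and of all genes tested 14.2% fell and 16.9% rose. The 4 that fell, the 1 that rose and *Erg*, as 1 of the 6 not called, are shown as examples, picked with their values known. The others are *Calcrl*, *Cd34*, *Cyyr1*, *Ehd3* and *Rasip1*. Capitals mark the motif, which reads CTTCCTG where it lies on the strand opposite the gene.
Emcn, chr3:137340893-137340922, forward strand: aagaagggtctCTTCCTGttcaaatcccat
Robo4, chr9:37401911-37401940, forward strand: tgagggccaggCAGGAAGcatccgtttcct
Notch4, chr17:34564045-34564074, forward strand: ctgccCTTCCTGggtcacagtagcattccc
Egfl7, chr2:26580982-26581011, forward strand: tgggagacaaaCAGGAAGgccatctctctg
Apln, chrX:48034948-48034977, reverse strand: tccctctccctCTTCCTGcctctcttcccc
Erg, chr16:95459370-95459399, reverse strand: aatagaaacctCTTCCTGccattggctgac
The motif lay 174 bases before the start of *Emcn*, 50 before *Robo4*, 245 before *Notch4*, 90 before *Egfl7*, 113 before *Apln* and 40 before *Erg*. In all, 11 motifs were searched on both strands, several of which overlap CAGGAAG through GGAA. ACNGGAAG was in 19.2% of the 26 regions against 8.15% of all, CNGGAAGT in 11.5% against 9.53%, and CCGGAAGT in 0% against 3.89%. The bare core GGAA was in 100% against 96.0%, the SOX-type motifs ACAAT and AACAAT in 38.5% against 31.0% and 15.4% against 10.7%, and the GATA-type motif AGATAA in 7.69% against 11.2%. ACGTG, the core of the hypoxia response element, was in 11.5% against 19.6%, TATAAA in 11.5% against 13.6%, and the AP-1-type motif TGACTCA in 3.85% against 5.20%. A match describes these letters and is no measure of binding.

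Levels between genes were compared per kilobase of exon. In noncystic *Pkd2* +/+ kidneys, *Plvap*, which builds the diaphragms of fenestrated capillaries, stood highest at 255 CPM per kb. *Eng*, a TGF-β co-receptor, followed at 53.0, then *Sox18* at 31.2, *Egfl7* at 29.3 and *Tie1* at 29.1 CPM per kb. *Esam*, *Aplnr* and *Pecam1*, at 24.1, 23.8 and 23.5 CPM per kb, came next. *Vwf* (1.06) and *Cyyr1* (0.736) were lowest per kb. The general endothelial marker *Pecam1* held 2401 to 3017 reads in every mouse. Only *Rbp7*, with 5 to 140 reads, was thinly covered.

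With *Pkd2* +/+, most of the 37 genes were lower in cystic kidneys. The 37 genes together made up 2540 to 2683 CPM in the noncystic *Pkd2* +/+ mice and 1730 to 2086 CPM in the cystic *Pkd2* +/+ mice, so the groups did not overlap. By the quasi-likelihood test of edgeR, with p-values adjusted after Benjamini and Hochberg over all genes tested, 22 of the 37 fell (59.5%), 2 rose and 13 were not called, where 14.2% of all genes tested fell and 16.9% rose. Genes with few reads lower those shares of all genes. With at least 10 counts required in every mouse, 23 of 36 fell and 2 rose, where 23.9% of all genes tested fell and 25.8% rose. The median log2 fold change was -0.47 for the 37 genes and 0.02 for all genes tested. All 3 cystic mice lay below all 3 noncystic mice for 23 of the 37, against 19.7% of all genes, and above them for 2, against 22%. CPM moves with the scaling: library totals in place of TMM raised the fold change of the median gene by 0.158. With them 15 of the 37 fell and 3 rose, *Fli1* being the added one, where 10% of all genes tested fell and 25.4% rose. That scaling ended the calls of *Sox7*, *Sox17*, *Icam2*, *Robo4*, *Clec14a*, *Dll4* and *Nos3*.

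**Figure D1:**
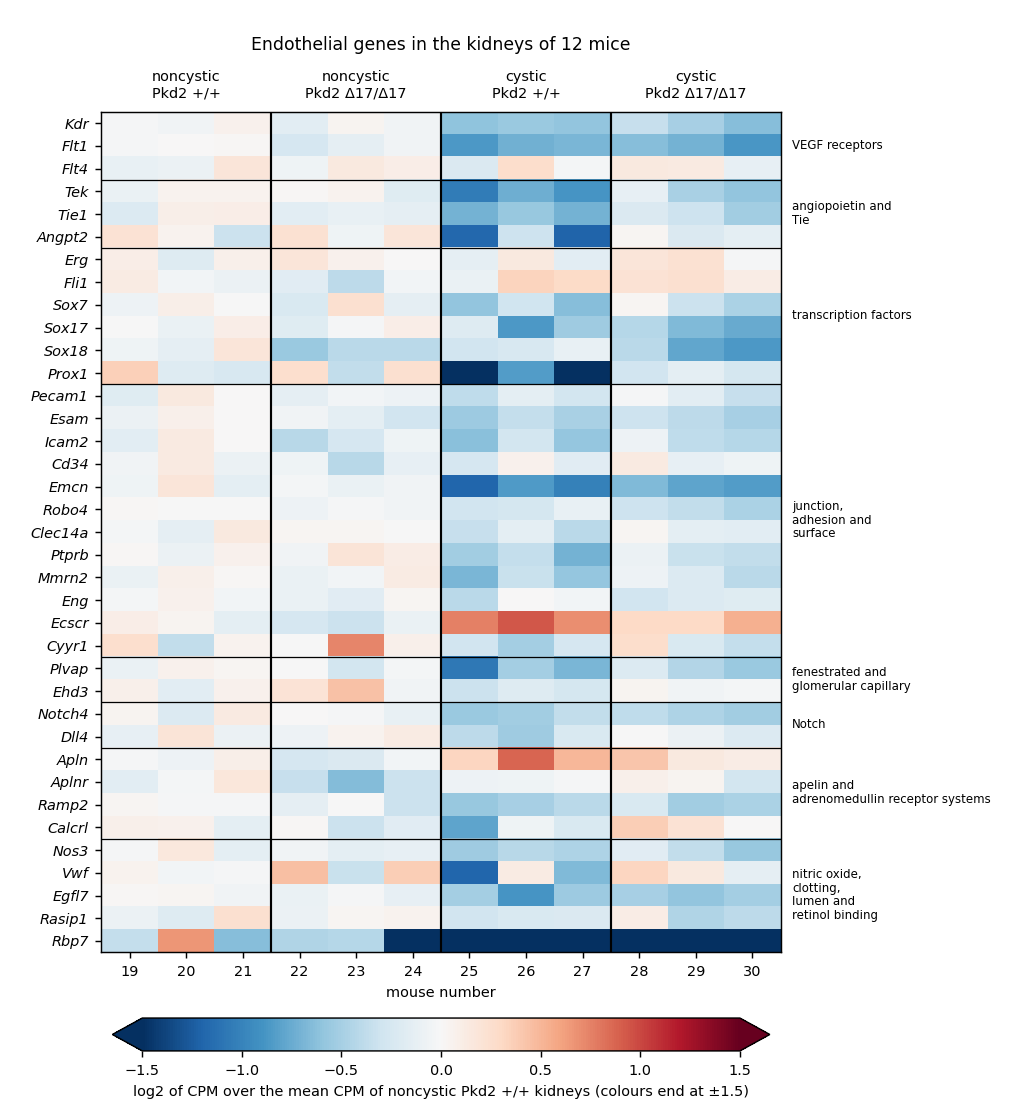
Colour gives the log2 ratio of each gene's CPM in each mouse to its mean in noncystic Pkd2 +/+ kidneys, with genes in rows by role, mice in columns by group and colours ending at ±1.5. Most rows are blue (lower) in the 3 cystic Pkd2 +/+ mice and paler in the cystic Δ17/Δ17 mice, while Ecscr and Apln are red (higher) in both cystic groups.

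Among the VEGF receptors, *Kdr* (VEGFR2, the main receptor of VEGF-A) stood at 89.9, 88.1 and 95.8 CPM in the noncystic *Pkd2* +/+ mice and at 59.9, 61.9 and 60.6 CPM in the cystic ones. *Flt1* (VEGFR1, which binds VEGF-A and limits its supply to VEGFR2) stood at 82.5, 83.9 and 84.7 CPM against 46.0, 50.7 and 52.1 CPM. Both receptors were lower in every cystic mouse than in any noncystic one. The log2 fold changes were -0.59 for *Kdr* (standard error 0.08; edgeR adjusted p = 3.15e-05) and -0.76 for *Flt1* (standard error 0.08; edgeR adjusted p = 2.4e-06). *Flt4* (VEGFR3, prominent on lymphatic vessels) did not follow them: 21.3, 21.8 and 26.1 CPM against 19.9, 27.7 and 22.7 CPM overlapped, with a log2 fold change of 0.02 (95% confidence interval -0.25 to 0.29).

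All 3 genes of the angiopoietin and Tie system fell. *Tek* (Tie2, the receptor of the angiopoietins) went from 85.9, 95.3 and 95.2 CPM to 44.5, 55.6 and 49.8 CPM, a log2 fold change of -0.88 (standard error 0.11; edgeR adjusted p = 1.51e-05). Its partner receptor *Tie1* went from 143 ± 16.2 to 90.6 ± 5.15 CPM (SD, n = 3 mice in each group), a log2 fold change of -0.66 (edgeR adjusted p = 3.11e-05). For *Angpt2*, the context-dependent Tie2 ligand that endothelial cells release, the noncystic mice had 75.0, 66.7 and 51.3 CPM and the cystic mice 28.3, 52.0 and 28.1 CPM. Mouse 26 stood apart from the other two cystic mice and lay just above the lowest noncystic mouse. *Angpt2* fell by 0.84 on the log2 scale (standard error 0.19; edgeR adjusted p = 0.00271), and by 1.19 without mouse 26.

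The 6 transcription factors split. *Erg* and *Fli1*, ETS factors that maintain endothelial identity, were not called: *Erg* had 38.8, 31.8 and 38.0 CPM in noncystic and 33.0, 40.1 and 32.5 CPM in cystic kidneys, and *Fli1* 20.1, 18.0 and 17.3 against 17.3, 23.3 and 22.6 CPM. The log2 fold changes were -0.04 (95% confidence interval -0.27 to 0.18) and 0.18 (-0.08 to 0.45). Of the SOXF factors, which act in artery and vessel formation, *Sox17* fell from 53.7 ± 3.52 to 37.8 ± 8.81 CPM (SD, n = 3 each; log2 fold change -0.50, edgeR adjusted p = 0.00912). *Sox7*, at 8.29 ± 0.472 against 5.86 ± 0.783 CPM, fell by 0.50 on the log2 scale, with an edgeR adjusted p of 0.0401 that was lost without any one of mice 19, 20, 21, 25 or 27. *Sox18* was not called (log2 fold change -0.21, 95% confidence interval -0.45 to 0.03). *Gm37587* on the other strand overlaps 16.8% of the *Sox17* exon length, and the strand setting of the counting is not given in the sources used here, so its counts are uncertain to that extent.

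*Prox1*, the master factor of lymphatic endothelium, had 34.1, 23.3 and 22.6 CPM in the noncystic and 6.23, 14.9 and 8.66 CPM in the cystic *Pkd2* +/+ mice. The groups did not overlap, and *Prox1* fell by 1.43 on the log2 scale (standard error 0.25; edgeR adjusted p = 2.47e-04), or by 1.85 without mouse 26, the highest of the cystic mice. *Prox1* is also expressed by the thick ascending limb. Genes of that segment, chosen after their values were seen, moved beside it: *Slc12a1*, its sodium transporter, fell by 0.97 and *Cldn10*, its cation channel claudin, by 1.33 on the log2 scale (edgeR adjusted p = 2.31e-06 and 7.67e-08), while *Umod*, which encodes uromodulin, had a log2 fold change of -0.10 (edgeR adjusted p = 0.689). Of 5 other lymphatic genes tested, *Pdpn* and *Lyve1* rose by 2.31 and 0.99 on the log2 scale, *Reln* and *Foxc2* fell by 1.31 and 0.51, and *Mmrn1* was not called. *Pdpn* is also a podocyte and stromal gene, and *Lyve1* is also made by macrophages. The part of other cell types in the *Prox1* value was not tested.

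The 12 junction, adhesion and surface genes ranged from a log2 fold change of -1.01 to 0.80, with 7 that fell and 1 that rose. *Emcn*, a sialomucin of capillary and venous endothelium, had the lowest adjusted p of the 37 genes: 112, 133 and 106 CPM in noncystic against 51.4, 64.9 and 58.2 CPM in cystic kidneys. It fell by 1.01 on the log2 scale (standard error 0.10; edgeR adjusted p = 7.16e-07), to 0.497 of the noncystic level. *Ptprb*, the vascular phosphatase VE-PTP that restrains Tie2 and junction signalling, went from 107 ± 5.93 to 74.1 ± 9.13 CPM (SD, n = 3 each; log2 fold change -0.53, edgeR adjusted p = 6.04e-04). The adhesion genes *Esam* and *Icam2* fell by 0.46 and 0.49 on the log2 scale, and *Mmrn2*, a vessel matrix protein, by 0.52. Its surface partner *Clec14a* fell by 0.30 and the guidance receptor *Robo4* by 0.22, to edgeR adjusted p-values of 0.0289 and 0.0339. The *Clec14a* call was lost without mouse 19, 21, 25 or 27 and with the compared groups alone. That of *Robo4* was lost without mouse 19, 25 or 26, with no filter, with *Xist* as a covariate and with the compared groups alone. Of the general markers, *Pecam1* had a log2 fold change of -0.26 (95% confidence interval -0.47 to -0.06; edgeR adjusted p = 0.0503) and was called without mouse 19 or 26, with DESeq2 or its size factors, and with each of the other filters. *Cd34* (-0.11, -0.34 to 0.11), *Eng* (-0.13, -0.34 to 0.07) and the little-studied *Cyyr1* (-0.35, -0.83 to 0.14) were not called. *Ecscr*, an endothelial surface regulator of chemotaxis, went the other way, with 12.6, 12.1 and 10.6 CPM in noncystic against 19.9, 22.4 and 19 CPM in cystic kidneys. It rose by 0.80 on the log2 scale (standard error 0.12; edgeR adjusted p = 7.72e-05), and all cystic mice lay above all noncystic mice.

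Of the capillary specialisation genes, *Plvap* went from 473, 528 and 519 CPM to 241, 355 and 316 CPM. It fell by 0.74 on the log2 scale (standard error 0.13; edgeR adjusted p = 2.53e-04), the largest loss of the 37 genes in CPM. *Ehd3*, which in the kidney marks glomerular endothelium, stood at 48.1 ± 4.31 against 40.3 ± 1.79 CPM (SD, n = 3 each). Its log2 fold change was -0.26 (95% confidence interval -0.48 to -0.03) with an edgeR adjusted p of 0.0813, although the groups did not overlap. It was called by DESeq2, with no filter, with at least 10 counts in every mouse, with *Xist* as a covariate and without mouse 20. Both Notch genes fell: the endothelial receptor *Notch4* by 0.48 (edgeR adjusted p = 6.79e-04) and the ligand *Dll4*, which restrains sprouting, by 0.38 on the log2 scale (edgeR adjusted p = 0.0163). *Dll4* was not called without mouse 20 or mouse 26.

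Of the 4 apelin and adrenomedullin genes, 1 rose, 1 fell and 2 were not called. *Apln*, the ligand made by tip cells, had 31.4, 30.3 and 33.9 CPM in noncystic against 40.0, 58.3 and 45.0 CPM in cystic kidneys and rose by 0.58 on the log2 scale (standard error 0.12; edgeR adjusted p = 0.00165). Its receptor *Aplnr* stood at 88 ± 10.4 and 84.9 ± 2.01 CPM (SD, n = 3 each), with a log2 fold change of -0.05 (95% confidence interval -0.28 to 0.18). In the adrenomedullin receptor, the accessory subunit *Ramp2* fell by 0.49 on the log2 scale (edgeR adjusted p = 0.00115). The receptor core *Calcrl* had 48.3, 48.2 and 41.4 CPM against 26.5, 44.1 and 39.2 CPM and was not called (log2 fold change -0.33, edgeR adjusted p = 0.113), but was called without mouse 26 or with no filter. The exons of *Ramp2* share 33.4% of their length with *Vps25* on the same strand, so its counts are uncertain.

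In the remaining group, *Egfl7*, a secreted vessel matrix protein and the host gene of miR-126, went from 105 ± 3.20 to 67.4 ± 9.39 CPM (SD, n = 3 each), a log2 fold change of -0.64 (edgeR adjusted p = 2.84e-05). *Nos3*, the endothelial nitric oxide synthase, fell by 0.47 (edgeR adjusted p = 0.00897), with 25.2% of its exon length overlapped by *Gm15587* on the other strand. *Vwf*, the clotting factor carrier of larger vessels, had 17.7, 16.6 and 16.9 CPM against 7.51, 18.6 and 10.8 CPM. The groups overlapped because of mouse 26, and the log2 fold change of -0.48 was called only when that mouse was left out or no filter was set. *Rasip1*, needed for lumen formation, had a log2 fold change of -0.24 (95% confidence interval -0.57 to 0.08), and 20.4% of its exons overlap *Izumo1*. *Rbp7*, a retinol-binding protein of endothelium and fat, is given as a description because its fall was known beforehand: 3.95, 7.98 and 3.26 CPM in noncystic and 0.465, 0.245 and 0.377 CPM in cystic kidneys. The log2 fold change was -3.76, with a standard error of 0.50.

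**Figure D2:**
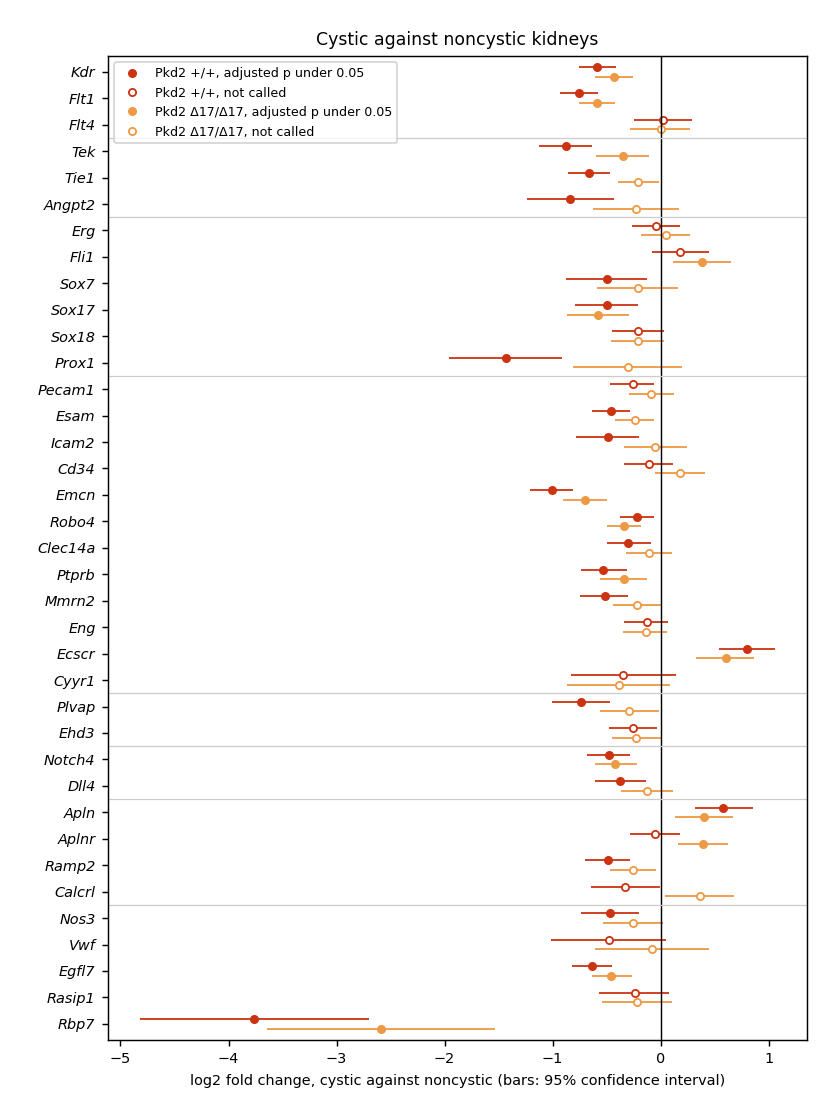
Points are log2 fold changes of cystic against noncystic kidneys for each of the 37 genes, in red with Pkd2 +/+ and in orange with Pkd2 Δ17/Δ17, bars are 95% confidence intervals, and filled points had an edgeR adjusted p under 0.05. The 22 filled red points left of 0 contrast with 10 filled orange ones, and Ecscr and Apln lie right of 0 in both colours.

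With the *Pkd2* motif deleted, fewer of the genes differed between cystic and noncystic kidneys. Their sum was 2412 to 2527 CPM in the noncystic and 1977 to 2339 CPM in the cystic Δ17/Δ17 mice, again without overlap. That separation rested on the TMM factors. As a plain share of counted reads, the genes made up 0.234 to 0.240% in the noncystic and 0.213 to 0.246% in the cystic Δ17/Δ17 mice, which overlapped. By edgeR, 10 of the 37 fell, 4 rose and 23 were not called, where 10.2% of all genes tested fell and 12.8% rose. With at least 10 counts required in every mouse, 11 of 36 fell and 4 rose, where 18.8% of all genes tested fell and 20.7% rose. The median log2 fold change was -0.22 for the 37 and 0.00 for all genes. With library totals 7 fell and 6 rose, where 6.72% of all genes tested fell and 21.6% rose. The cystic mice lay wholly above the noncystic mice for 4 of the 37, against 20.2% of all genes, and wholly below for 13, against 17.7%. The 10 that fell, *Kdr*, *Flt1*, *Tek*, *Sox17*, *Emcn*, *Robo4*, *Ptprb*, *Notch4*, *Egfl7* and *Rbp7*, were all among the 22 that fell with *Pkd2* +/+.

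*Emcn* had 115, 110 and 113 CPM in noncystic against 74.0, 67.6 and 65.7 CPM in cystic Δ17/Δ17 kidneys and fell by 0.70 on the log2 scale (standard error 0.10; edgeR adjusted p = 4.98e-05). *Flt1* fell by 0.59 and *Kdr* by 0.43 (edgeR adjusted p = 5.6e-05 and 8.49e-04). *Sox17*, *Egfl7*, *Notch4* and *Robo4* fell by 0.58, 0.46, 0.42 and 0.34. *Tek* and *Ptprb* fell by 0.35 and 0.34, to edgeR adjusted p-values of 0.0321 and 0.0189. The *Tek* call was lost without mouse 22, 23, 29 or 30, with *Xist* as a covariate and with the compared groups alone, and that of *Ptprb* without mouse 23, 24, 29 or 30. Library totals, with edgeR or limma-trend, ended the calls of *Tek*, *Ptprb* and *Robo4*. *Ecscr* rose by 0.60 (edgeR adjusted p = 0.00185) and *Apln* by 0.40 (edgeR adjusted p = 0.0298). *Fli1* and *Aplnr* rose by 0.38 and 0.39, to edgeR adjusted p-values of 0.0389 and 0.0153. The call of *Apln* was lost without mouse 22, 23 or 28, that of *Aplnr* without mouse 23, 28 or 29, and that of *Fli1* without any one of mice 22, 23, 28, 29 or 30, with DESeq2 size factors and with *Xist* as a covariate. *Aplnr* had 69.0, 56.0 and 70.6 CPM in these noncystic mice and 93.0, 90.7 and 72.6 CPM in the cystic ones, while its noncystic *Pkd2* +/+ mice had 78.8 to 99.2 CPM.

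The other 12 genes that fell with *Pkd2* +/+ were not called here, although DESeq2 called *Esam* and *Ramp2*. Among them were *Tie1* (log2 fold change -0.21), *Angpt2* (-0.23), *Prox1* (-0.30), *Plvap* (-0.29), *Mmrn2* (-0.22), *Ramp2* (-0.26) and *Nos3* (-0.26). That a gene was called with one *Pkd2* genotype and not with the other does not show a difference between them. The test of that difference, the interaction of disease and deletion, called 0 of the 37 genes by edgeR, against 0.0122% of all genes tested (0.00812% higher and 0.00406% lower). It had an unadjusted p under 0.05 for 9 of the 37, against 8.33% of all genes tested. The interaction includes the cystic and noncystic *Pkd2* +/+ mice whose fold changes were known when the list was chosen, so that count describes the list. DESeq2 and limma-trend also called 0.

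Among themselves the genes did not move in step. As a common scale, each gene's log2CPM was set against the mean log2CPM, in the same mouse, of 9 general endothelial genes (*Pecam1*, *Tie1*, *Tek*, *Esam*, *Egfl7*, *Erg*, *Eng*, *Clec14a* and *Robo4*). That mean was 6.38 ± 0.05 in noncystic and 5.98 ± 0.08 in cystic *Pkd2* +/+ kidneys, and 6.33 ± 0.03 and 6.11 ± 0.10 with Δ17/Δ17 (SD, n = 3 each). These values are descriptions with no test, and library scaling cancels in them. Against the 9 genes, *Prox1* was 1.08 lower in cystic than in noncystic *Pkd2* +/+ kidneys, a difference in log2 of -1.08, and *Emcn*, *Tek*, *Angpt2*, *Flt1* and *Plvap* differed by -0.61, -0.49, -0.48, -0.35 and -0.35. *Ecscr*, *Apln*, *Fli1*, *Flt4*, *Erg* and *Aplnr* differed by 1.19, 0.97, 0.58, 0.41, 0.36 and 0.36. These genes were named for the size of their difference on this scale, and for *Angpt2* the groups overlapped. *Tek* and *Erg* are themselves among the 9 genes, which did not fall equally. Their own log2 fold changes were -0.88 and -0.04, so the scale is a mean and no fixed level.

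**Figure D3:**
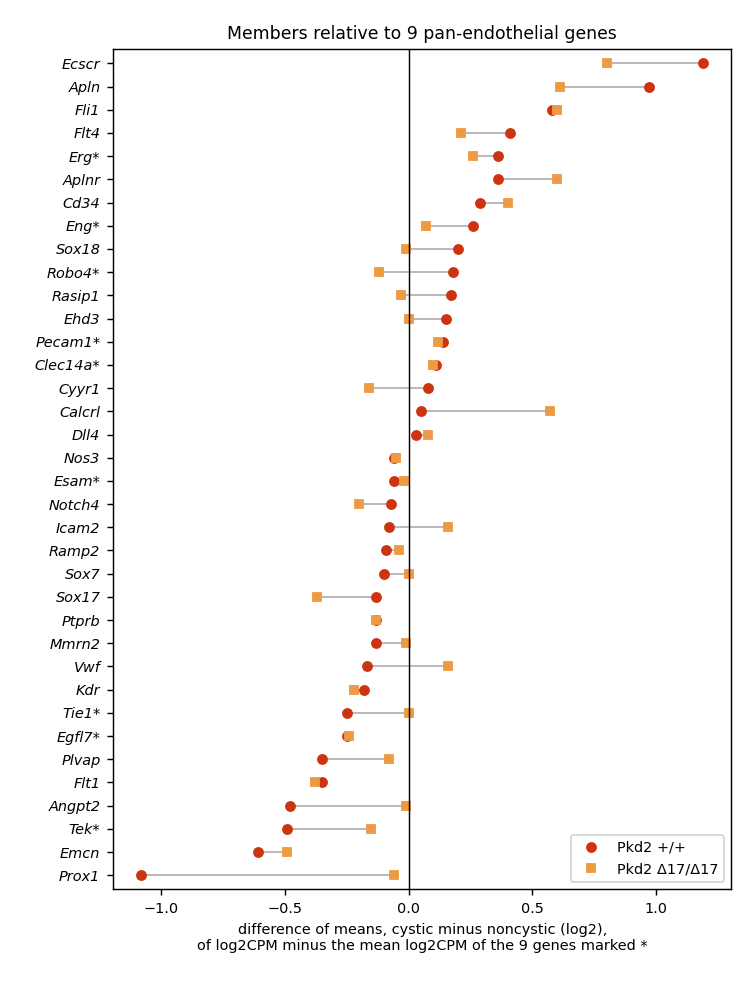
Each point is the difference between the cystic and noncystic group means (log2) of a gene's log2CPM minus the mean log2CPM of 9 general endothelial genes (marked with an asterisk), as red circles for Pkd2 +/+ and orange squares for Δ17/Δ17, with Rbp7 (-3.0 with Pkd2 +/+) left out for scale. Ecscr and Apln lie furthest right and Prox1 furthest left with Pkd2 +/+, where Prox1 with Δ17/Δ17 is near 0.

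In cystic kidneys, deletion of the *Pkd2* motif was compared directly. Of the 37 genes, 2 rose and 1 fell by edgeR, where 1.19% of all genes tested rose and 1.04% fell (2.23% in either direction). Fold changes were above 0 for 31 of the 37, against 50.1% of all genes tested, with a median of 0.11 against 0.00 for all genes, and 16 had an unadjusted p under 0.05, against 14.3% of all genes. The cystic *Pkd2* +/+ mice, the reference here, also entered the fold changes known when the list was chosen. These counts therefore describe the list and are no separate support. The Δ17/Δ17 mice lay wholly above for 8 of the 37, against 8.79% of all genes, and wholly below for 3, against 10.2%. *Prox1* stood at 6.23, 14.9 and 8.66 CPM in the cystic *Pkd2* +/+ mice and at 21.8, 24 and 22.2 CPM in the cystic Δ17/Δ17 mice. Every Δ17/Δ17 mouse was higher, and *Prox1* rose by 1.2 on the log2 scale (standard error 0.25; edgeR adjusted p = 0.0194). Beside it, *Slc12a1* and *Cldn10* rose by 0.93 and 0.70 (edgeR adjusted p = 7.04e-04 and 0.00216), and *Umod* had a log2 fold change of 0.55 (edgeR adjusted p = 0.102). Of the 5 other lymphatic genes tested, 1 rose, 1 fell and 3 were not called with the deletion in cystic kidneys. *Reln* averaged 2.29 CPM in the cystic *Pkd2* +/+ and 5.42 CPM in the cystic Δ17/Δ17 mice, and *Pdpn* 99.1 and 64.2 CPM. The parts of the thick ascending limb and of lymphatic vessels in the *Prox1* value were not tested.

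*Tek* had 44.5, 55.6 and 49.8 CPM against 84.9, 65.6 and 60.9 CPM and rose by 0.50 on the log2 scale (standard error 0.11; edgeR adjusted p = 0.0317), with no overlap. *Sox18* fell by 0.46 (standard error 0.12; edgeR adjusted p = 0.0481), from 41.6, 42.8 and 47.0 to 38.1, 29.4 and 27.9 CPM. These 3 calls were fragile. That of *Prox1* was lost without mouse 27, 28 or 29, that of *Tek* without mouse 25, 27, 28 or 29, and that of *Sox18* without mouse 26, 27, 29 or 30, with library totals and with *Xist* as a covariate. Fitting the 2 cystic groups alone left 0 of the 37 genes called.

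Other genes lay near the threshold in the same comparison. *Angpt2* had 28.3, 52.0 and 28.1 CPM against 65.8, 55.4 and 58.3 CPM, a log2 fold change of 0.73 (95% confidence interval 0.33 to 1.14; edgeR adjusted p = 0.0578), and was called without mouse 26 (at 1.09), with limma-trend, with no filter and with *Xist* as a covariate. *Calcrl* had 26.5, 44.1 and 39.2 CPM against 59.2, 53.5 and 46.3 CPM, a log2 fold change of 0.54 (95% confidence interval 0.22 to 0.85; edgeR adjusted p = 0.0771). *Tie1* was at 0.32 (edgeR adjusted p = 0.092), and *Ecscr* at -0.42 (edgeR adjusted p = 0.0858), and DESeq2 called both. The groups did not overlap for *Angpt2*, *Calcrl*, *Tie1* and *Ecscr*. The VEGF receptors stayed close: *Kdr* had a log2 fold change of 0.10, *Flt1* of 0.02 and *Flt4* of 0.04, each with an edgeR adjusted p of at least 0.665.

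**Figure D4:**
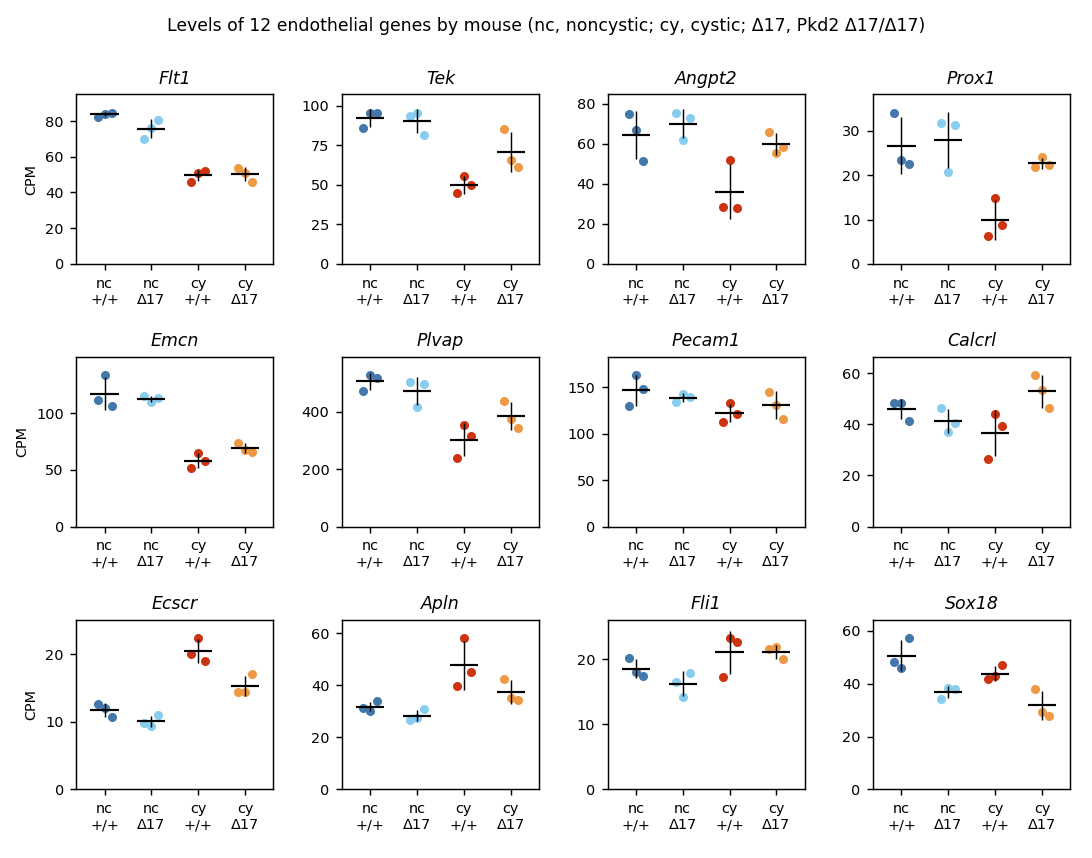
Points are CPM of 12 of the genes in each mouse, with bars for the mean and SD of the 3 mice of each group and the axis from 0. Flt1 and Emcn are low in both cystic groups, Prox1 and Tek are lowest in cystic Pkd2 +/+ kidneys, and Ecscr and Apln are highest there.

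In noncystic kidneys the deletion changed 0 of the 37 genes by edgeR, where 0.00406% of all genes tested were called, and 2 had an unadjusted p under 0.05, against 6.31% of all genes. DESeq2 and limma-trend called 0 as well. The Δ17/Δ17 mice lay wholly above for 0 of the 37, against 5.69% of all genes, and wholly below for 4, against 5.09%. The 2 with a low unadjusted p were *Sox18*, at 48.4, 46.1 and 57.3 CPM with *Pkd2* +/+ against 34.3, 38.3 and 38.1 CPM with Δ17/Δ17, and *Aplnr*. Their log2 fold changes were -0.46 and -0.43, each with an edgeR adjusted p of 0.771, and the groups did not overlap for either gene. *Sox18* thus had the same log2 fold change of -0.46 in noncystic and in cystic kidneys.

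Endothelial genes outside the 37, and the ligands that act on them, were read from the same fit. Of 20 further general endothelial genes, 8 fell and 2 rose between cystic and noncystic *Pkd2* +/+ kidneys, with a median log2 fold change of -0.16. *Podxl*, *Ly6c1* and *Arhgef15* fell by 1.17, 0.94 and 0.68, *Gata2* rose by 1.18, and the VE-cadherin gene *Cdh5* was not called at -0.04 (95% confidence interval -0.29 to 0.22). *Podxl* is also a podocyte gene. In 8 arterial genes, *Efnb2* and *Unc5b* rose by 1.18 and 0.51 and *Sema3g* and *Gja4* fell by 1.02 and 0.42. In 9 venous and vasa recta genes 4 fell, led by *Igfbp5* at -1.38, and 1 rose. *Igfbp5* rose by 1.27 with the deletion in cystic kidneys (edgeR adjusted p = 0.00846). Of 6 glomerular endothelial genes, 2 rose (*Pi16* and *Fbln2*) and 1 fell. Among 10 tip cell genes 3 rose, *Unc5b*, *Lamb1* and *Trp53i11*, and 0 fell. The list names give the use of these genes as markers, and which cell types of the whole kidney gave their values was not tested.

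Of 25 vascular ligands and co-receptors, 9 fell and 8 rose with *Pkd2* +/+. Of the called genes with a mean log2CPM of at least 0, *Ramp1* changed most and rose by 1.82 on the log2 scale. Next came *Adm2*, *Angptl4* and *Cxcl12*, which fell by 1.37, 1.3 and 1.28. *Vegfa*, the ligand of *Kdr* and *Flt1*, fell by 0.45 on the log2 scale (edgeR adjusted p = 0.0187) and *Angpt1*, the activating ligand of Tie2, by 1.02 (edgeR adjusted p = 2.23e-05). *Vegfd*, a ligand of *Flt4*, rose by 0.54, and *Apela*, the second ligand of *Aplnr*, by 0.63. The hypoxia factor gene *Epas1* fell by 0.61, *Hif1a* was not called at -0.01, and the endothelial ligand *Pdgfb*, which recruits pericytes, rose by 0.85. With Δ17/Δ17, 8 of the 25 rose and 8 fell between cystic and noncystic kidneys. In cystic kidneys the deletion changed only *Cxcl12* of the 25, which rose by 0.72 (edgeR adjusted p = 0.00281), while *Angpt1* was at 0.54 (edgeR adjusted p = 0.0518).

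Other cell types moved in the same kidneys. Of 10 macrophage and leukocyte genes, 10 rose between cystic and noncystic *Pkd2* +/+ kidneys, and their sum went from 217 to 224 CPM to 510 to 651 CPM. *Fli1*, *Icam2*, *Pecam1* and *Cd34* are also expressed in blood cells. Of 8 podocyte genes 7 fell and 1 rose, with sums of 737 to 875 and 399 to 469 CPM. Of 6 red blood cell genes 6 fell, with sums of 664 to 1023 and 269 to 361 CPM. All 8 proximal tubule genes fell, with sums of 9003 to 10640 and 3083 to 4498 CPM, and all 8 cell cycle genes rose. Mural cell genes rose in 3 and fell in 2 of 10, with *Acta2* up by 2.05 on the log2 scale, fibroblast genes rose in 4 and fell in 2 of 8, and *Pf4* was the 1 of 5 tested platelet genes called. In the cystic Δ17/Δ17 mice the macrophage sum was 322 to 449 CPM, and 4 of the 10 genes fell with the deletion in cystic kidneys, while 3 of the 8 proximal tubule genes rose. The part of these cell types in the values of the 37 genes was not tested.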

How the data were processed

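RNA-seq measured mRNA in whole kidneys of 12 mice. Per the labels and methods, the authors trimmed reads with Trim Galore 0.6.3, aligned them with STAR 2.5.3a to GRCm38 and deposited raw read counts per gene, with no normalization. The strand column used was not given in the sources used here, so overlapping genes are uncertain. Of the genes, 343 carry no name (0.0225% of reads). Groups came from the sample titles. The mice of a group are separate animals.

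The tools were edgeR 4.0.16 for the reported fits and limma 3.58.1 and DESeq2 1.42.0 for alternatives, run under R 4.3.3. Genes with a mean log2CPM of at least -3 were kept (24642), TMM factors were computed, and edgeR's quasi-likelihood test was fitted over all 12 mice with 1 mean per group (8 residual degrees of freedom), Benjamini-Hochberg adjustment over all genes tested and a threshold of 0.05. The contrasts were cystic against noncystic with either *Pkd2* genotype, the deletion in cystic and in noncystic kidneys, and the interaction. The scripts were tested on simulated data. Exon lengths and overlaps came from a GRCm38 annotation, in which 54495 identifiers were found.

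The 37 genes and all gene lists were chosen with earlier results of these data known, so no test was run over a list. All 37 are accounted for. Of the other lists, at most 4 genes were named by rule, those with the largest absolute fold change among called genes with a mean log2CPM of at least 0. *Cdh5*, *Mmrn1* and the thick ascending limb genes were named after their values were seen. So were all ligands and factors of the vascular list except *Ramp1*, *Adm2*, *Angptl4* and *Cxcl12*. Alternatives were other scalings, tests and filters, *Xist* as a covariate, the compared groups alone, and leaving out each mouse in turn.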

Additional observations from a re-analysis of the deposited data

How the results depend on the processing

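No paired analysis was possible because the replicate numbers are mouse numbers that no 2 groups share. Between cystic and noncystic *Pkd2* +/+ kidneys the number of genes called, 24, stayed within 1.5 times under all alternatives, at 18 to 27, and was 21 to 25 when each mouse was left out. Of all genes tested, 7665 were called in the main fit and 6480 to 8829 under the alternatives. With Δ17/Δ17 it was 14, with 12 to 16 under the other alternatives. Leaving out each mouse in turn gave 9 to 16 called and 1 to 4 higher, the 9 without mouse 23 and the 1 without mouse 23 or 28. Of all genes tested, 5679 were called with Δ17/Δ17 in the main fit and 4423 to 7134 under all alternatives. For the deletion in cystic kidneys (3 called, 2 higher, 1 lower), DESeq2 gave 6 called, 4 higher and 2 lower, no filter 9, 7 and 2, the compared groups alone 0, 0 and 0, and library totals and the *Xist* covariate each 0 lower. Leaving out each mouse in turn gave 0 to 5 called, 0 to 5 higher and 0 to 2 lower, with 0 called without mouse 27 or 29. Of all genes tested, 118 were called without mouse 29, 130 without mouse 27 and up to 861 without mouse 25, against 549 in the main fit. In noncystic kidneys, no filter gave 2 called and 2 lower, where 0.157% of all genes tested fell. For the interaction, no filter gave 6 called, all higher, and leaving out each mouse 0 to 2 called and 0 to 2 higher, the 2 without mouse 26. Of all genes tested, 0.886% were higher with no filter and 0.17% without mouse 26, against 0.00812% in the main fit. Without a filter the prior degrees of freedom of the fit were infinite, against 8.12 with it, so that fit gave no gene its own spread. For the other changes the cause was not tested.

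Sign changes were confined to genes not called in that comparison. In cystic against noncystic *Pkd2* +/+ kidneys *Flt4* moved from 0.02 to -0.01 with DESeq2's size factors or test and to 0.00 with at least 10 counts in every mouse, and *Erg*, *Cd34*, *Eng* and *Aplnr* moved to 0.11, 0.05, 0.02 and 0.11 with library totals and to 0.12, 0.04, 0.01 and 0.11 with limma-trend on library totals. With Δ17/Δ17, *Icam2*, *Clec14a* and *Dll4* moved to 0.10, 0.04 and 0.02 with either. For the deletion in cystic kidneys, *Fli1* and *Aplnr* both moved to -0.01 with the *Xist* covariate. When each mouse was left out in turn, *Flt4*, *Erg* and *Aplnr* ranged from -0.12 to 0.12, -0.15 to 0.01 and -0.12 to 0.03 with *Pkd2* +/+, and *Icam2* from -0.16 to 0.05 with Δ17/Δ17. For the deletion in cystic kidneys *Flt1* ranged from -0.03 to 0.08, *Fli1* from -0.12 to 0.08, *Sox17* from -0.26 to 0.08, *Notch4* from -0.01 to 0.08, *Aplnr* from -0.06 to 0.11, *Ramp2* from -0.01 to 0.14 and *Egfl7* from -0.01 to 0.17. With at least 10 counts in every mouse, *Rbp7* was filtered out and gave no value.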
